A study of Arabidopsis thaliana with 18 samples.

Results

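The 10 genes described here belong to the GA 2-oxidase and DELLA families, which both act against the growth hormone gibberellin (GA) in Arabidopsis thaliana. GA2OX1 (AT1G78440), GA2OX2 (AT1G30040), GA2OX3 (AT2G34555), GA2OX4 (AT1G47990), GA2OX6 (AT1G02400) and GA2OX8 (AT4G21200) encode GA 2-oxidases, and GAI (AT1G14920), RGA (AT2G01570), RGL1 (AT1G66350) and RGL3 (AT5G17490) encode DELLA proteins. They were chosen by gene identifier among the 33557 genes of the deposited table. GA2OX7 and RGL2, further genes of the same families, lay outside that choice and are given beside them. RNA-seq was made from whole seedlings, 14 days old, of wild-type Col-0 (WT) and of the mutant stch4-1, grown on agar medium with MS salts and sucrose. The groups compared here were WT and stch4-1 after 4 h at 4 °C, with 3 libraries each, lettered a to c as the table lists them. Both groups were cold-treated, so a difference between them is one between genotypes in the cold and not a cold response. The labels do not give the kind of lesion in stch4-1, and the samples taken at 0 and 24 h were not analysed here.

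Gibberellins (GAs) are growth hormones that act by destroying their own repressors. When GA binds its receptor GID1, the complex seizes a DELLA protein by its DELLA motif, and the F-box protein SLY1 then marks it for degradation. DELLA proteins otherwise hold back growth by binding transcription factors, and they also raise transcripts of GA synthesis and receptor genes, which gives the pathway a negative feedback. GA 2-oxidases end the signal by hydroxylating GAs to inactive forms: GA2OX1, GA2OX2, GA2OX3, GA2OX4 and GA2OX6 act on bioactive GAs and their direct precursors, whereas GA2OX7 and GA2OX8 act on earlier precursors. In Arabidopsis, overexpression of the cold-response factor CBF1 is known to raise GA 2-oxidase transcripts and to let DELLA protein accumulate. DELLA abundance is set largely by protein turnover, which transcript levels do not measure.

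The DELLA motif shows both what unites the family and where its members differ. The 5 genes are given here on the coding strand of the RefSeq annotation of assembly TAIR10.1. Each run is 45 bases, with the 15 bases that encode the motif, or the residues in its place, in capitals.
RGA: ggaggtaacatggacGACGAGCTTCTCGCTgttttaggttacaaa
GAI: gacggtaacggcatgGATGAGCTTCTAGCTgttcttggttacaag
RGL1: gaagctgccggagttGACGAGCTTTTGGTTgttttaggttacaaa
RGL2: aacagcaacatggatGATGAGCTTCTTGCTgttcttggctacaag
RGL3: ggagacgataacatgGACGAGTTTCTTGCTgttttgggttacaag
Against RGA, the capitals differed at 2 bases in GAI, 3 in RGL1, 2 in RGL2 and 2 in RGL3. The differences in GAI and RGL2 left the encoded residues as DELLA, whereas the capitals encode DELLV in RGL1 and DEFLA in RGL3. The longest exact run shared by a pair of DELLA transcripts was 30 bases, between GAI and RGA. Among GA 2-oxidase transcripts it was 23 bases, between GA2OX1 and GA2OX6 and between GA2OX3 and GA2OX4. Pairs across the families were not compared. Each DELLA gene was annotated with 1 exon, and each GA 2-oxidase with 3 exons in its longest coding transcript. The proteins annotated were 587 residues long for RGA, 533 for GAI, 511 for RGL1, 523 for RGL3 and 329 for both GA2OX1 and GA2OX6.

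Values are FPKM, fragment numbers scaled by transcript length and library size, so levels can be set side by side between genes. Summed FPKM per library ranged from 878394 to 919309 in WT and from 947218 to 987059 in stch4-1. FPKM holds no count, but the lowest values come in multiples of the worth of 1 fragment, from which the libraries held an estimated 10800000 to 15300000 fragments. REIL2 (AT2G24500), the ribosome biogenesis gene that is also called STCH4, stood at 33.8 ± 2.43 FPKM in WT and 5.63 ± 0.184 FPKM in stch4-1 (SD, n = 3). Differences were tested with limma on log2(FPKM + 1) over the 19289 genes that reached 1 FPKM in at least 3 of the 6 libraries, and a gene was called at a Benjamini-Hochberg adjusted p under 0.05. By that rule 32.6% of the genes tested were called, 18.5% higher and 14.0% lower in stch4-1. Under quantile normalization the split of calls turned from 3576 higher and 2704 lower to 2614 higher and 3108 lower. Nothing in the labels tells whether the libraries of a genotype came from separate plates or harvests, and the p-values therefore rest on a spread that may be technical.

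Of the 10 genes, 7 passed the filter. Limma called 1 of them higher, RGA, and 1 lower, GA2OX1, and 5 were not called. GA2OX3, GA2OX4 and RGL3 lay below the filter. With 32.6% of all tested genes called, 2 of 7 is no more than the share across the transcriptome, so the count is no result about these genes. Of the genes tested in the whole table, 47.8% had FPKM ranges that did not overlap between the genotypes. Among the 10 genes, the ranges of 5 did not overlap: GA2OX1 was lower in stch4-1, and GA2OX4, GAI, RGA and RGL3 were higher. That is near the share over all tested genes, so this count too is no result about these genes. The share covers only genes that passed the filter, which GA2OX4 and RGL3 did not.

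**Figure D1:**
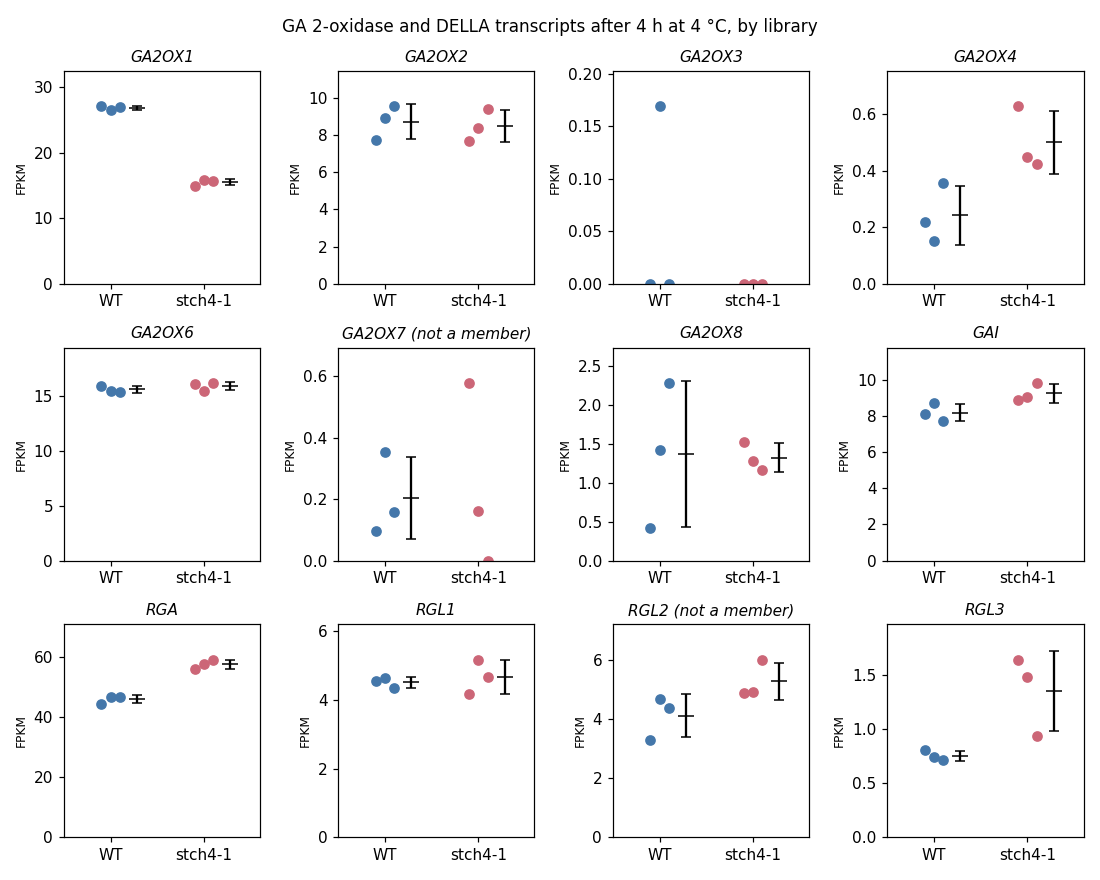
FPKM of each GA 2-oxidase and DELLA gene in the 3 WT and 3 stch4-1 libraries after 4 h at 4 °C. Points are libraries a, b and c from left to right, bars are the mean ± SD, left out where a library of that genotype is listed at 0, and each panel has its own linear axis from 0; GA2OX7 and RGL2, marked as not members, lie outside the genes chosen. GA2OX1 falls from about 26.8 to 15.4 FPKM and RGA rises from 45.9 to 57.6 FPKM, while GA2OX6 stays between 15.4 and 16.2 FPKM.

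GA2OX1, an enzyme that inactivates bioactive GAs, was the GA 2-oxidase with the most transcript in WT. Its FPKM was 27.1, 26.5 and 26.9 in WT, against 14.9, 15.8 and 15.6 in stch4-1. Every WT library was above every stch4-1 library, and the gap between the groups was far wider than the spread within them. The means were 26.8 ± 0.275 and 15.4 ± 0.456 FPKM (SD, n = 3). On the log2(FPKM + 1) scale the fall was 1.69-fold (limma log2 fold change -0.76, SE 0.044, 95% interval -0.86 to -0.66, adjusted p = 3.6e-05). Of the 19289 genes tested, 127, or 0.658%, fell as much or more. An estimated 224 to 533 fragments per library lay behind these values.

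GA2OX6, which acts on the same class of GAs, was not called. Its FPKM was 15.9, 15.5 and 15.4 in WT, against 16.1, 15.5 and 16.2 in stch4-1. The groups overlapped, and the log2 fold change was 0.03 (95% interval -0.08 to 0.14, limma adjusted p = 0.694). The interval lay wholly above that of GA2OX1. GA2OX2, another enzyme of that class, read 7.71, 8.89 and 9.54 FPKM in WT and 7.69, 8.38 and 9.38 in stch4-1. Both genotypes covered almost the same range, with a log2 fold change of -0.03 (95% interval -0.25 to 0.19, limma adjusted p = 0.812).

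The remaining GA 2-oxidases were barely detected. GA2OX8, which acts on the earlier precursors, read 0.413, 1.42 and 2.28 FPKM in WT and 1.52, 1.28 and 1.16 in stch4-1. The WT libraries alone enclosed all of the stch4-1 values, and the log2 fold change of 0.05 had a wide interval (95% interval -0.58 to 0.68, limma adjusted p = 0.908). GA2OX4 read 0.217, 0.152 and 0.356 FPKM in WT and 0.628, 0.448 and 0.425 in stch4-1. Its groups did not overlap, but the values rest on an estimated 2.9 to 10.3 fragments per library, and the exact 2-sided permutation test gave p = 0.1, the smallest that 3 against 3 libraries allow. When it was fitted without the filter, a fit that called 23.5% of 24648 genes, its log2 fold change was 0.27 and it was not called (limma adjusted p = 0.0624). GA2OX3 was listed at 0 in 5 of the 6 libraries and at 0.169 FPKM in WT b, an estimated 3.4 fragments. GA2OX7, which lay outside the choice of genes, read 0.097, 0.355 and 0.160 FPKM in WT and 0.578, 0.161 and 0 in stch4-1. None of these 4 genes passed a test in the settings tried here. For GA2OX3 and GA2OX7 a difference was not detectable at this depth, and the difference of GA2OX4 missed the threshold after adjustment.

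RGA, the DELLA protein that together with GAI is the main brake on vegetative growth, was the most abundant transcript of the 10 in both genotypes. Its FPKM was 44.3, 46.8 and 46.5 in WT, against 56.0, 57.8 and 59.0 in stch4-1. All stch4-1 libraries were above all WT libraries, with means of 45.9 ± 1.35 and 57.6 ± 1.51 FPKM (SD, n = 3). On the log2(FPKM + 1) scale the rise was 1.25-fold (limma log2 fold change 0.32, SE 0.0398, 95% interval 0.23 to 0.41, adjusted p = 0.00090). It was a rise of common size in these data, since 1988 tested genes, or 10.3%, rose as much or more.

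GAI, the closest relative of RGA in function, read 8.13, 8.69 and 7.74 FPKM in WT and 8.86, 9.05 and 9.81 in stch4-1. Its groups did not overlap, but the difference was not called (log2 fold change 0.16, 95% interval 0.00 to 0.31, limma adjusted p = 0.113). RGL1, a DELLA protein with a part in seed germination and flower development, read 4.56, 4.64 and 4.34 FPKM in WT and 4.18, 5.17 and 4.66 in stch4-1. Here the groups overlapped, and the log2 fold change was 0.04 (95% interval -0.16 to 0.24, limma adjusted p = 0.767). RGL2, the main DELLA brake on germination and outside the choice of genes, read 3.30, 4.69 and 4.37 FPKM in WT and 4.89, 4.94 and 6.01 in stch4-1. Its libraries separated narrowly and it was not called (log2 fold change 0.30, 95% interval 0.01 to 0.59, limma adjusted p = 0.101).

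RGL3, a DELLA gene best known for its response to jasmonate, had the lowest level of its family. It read 0.804, 0.741 and 0.712 FPKM in WT and 1.64, 1.48 and 0.941 in stch4-1, with means of 0.753 ± 0.0469 and 1.35 ± 0.366 FPKM (SD, n = 3). The stch4-1 libraries were all above the WT libraries, and they spread far more. The exact 2-sided permutation test gave p = 0.1, the smallest this design allows. With the filter lowered to 0.1 FPKM, where 28.1% of 22124 genes were called, RGL3 was called higher at the margin (log2 fold change 0.41, limma adjusted p = 0.0456). With no filter it was not called (limma adjusted p = 0.0517). An estimated 19.7 to 49.2 fragments per library lay behind its values. The mean of each of the 4 DELLA genes chosen was therefore higher in stch4-1, as was that of RGL2, although the log2 fold change of RGL1 was -0.025 without stch4-1 b. The share of all genes with a higher mean in stch4-1 was not counted, so this agreement in direction is no result about the family. Over all genes tested, the median log2 fold change was 0.01. RGA alone passed the test at the main filter.

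**Figure D2:**
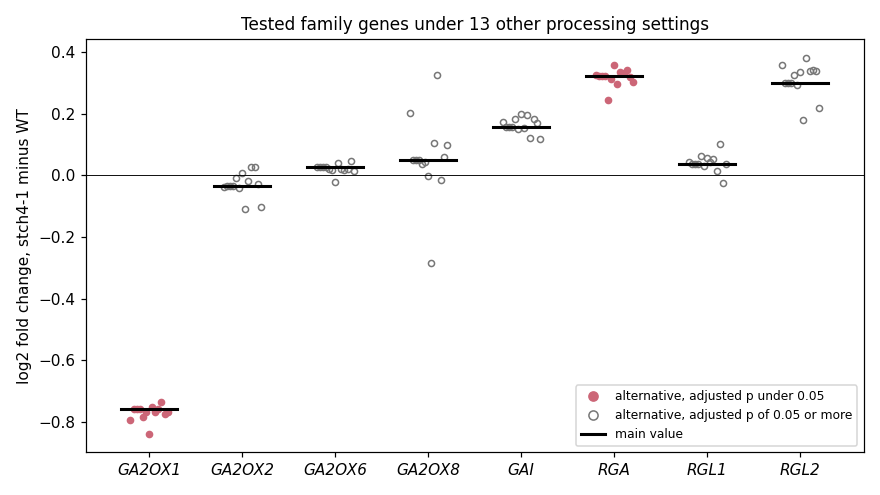
Log2 fold change, stch4-1 minus WT, of the 8 tested GA 2-oxidase and DELLA genes under 13 other processing settings, RGL2 included. Black lines are the reported values, filled points are settings with an adjusted p under 0.05 and open points the others. GA2OX1 stays between -0.84 and -0.74 and RGA between 0.25 and 0.36, each called in all 13 settings, whereas the points of GA2OX2, GA2OX6, GA2OX8 and RGL1 fall on both sides of 0.

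The order of mean levels changed in 2 places among the abundant genes. In WT the order was RGA, GA2OX1, GA2OX6, then GA2OX2 and GAI, whose ranges overlapped, then RGL1. In stch4-1, RGA was again first, GA2OX6 came before GA2OX1 and GAI before GA2OX2, and the ranges overlapped within each of these pairs. GA2OX8, RGL3, GA2OX4 and GA2OX3 filled the last 4 places in both genotypes. GA2OX8 and RGL3 overlapped in both, and GA2OX4 and GA2OX3 overlapped in WT.

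Summed over the 6 GA 2-oxidases chosen, FPKM was 51.3, 52.6 and 54.5 in WT, against 40.9, 41.4 and 42.8 in stch4-1. GA2OX1 supplied 50.8 ± 1.73% of that sum in WT and 37.1 ± 0.940% in stch4-1 (SD, n = 3). The share of GA2OX6 was 29.6 ± 1.38% in WT and 38.2 ± 1.04% in stch4-1, although its own level differed little. The sum over the 4 DELLA genes chosen was 57.8, 60.8 and 59.3 FPKM in WT and 70.7, 73.5 and 74.4 in stch4-1. RGA held 77.3 ± 0.970% of the DELLA sum in WT and 79.0 ± 0.355% in stch4-1. The sums of both families therefore separated the genotypes, in opposite directions, and the difference in each lay mostly in 1 gene. They restate the values of GA2OX1 and RGA and are no separate result. Of all single genes tested, 47.8% also separated the genotypes, as did the FPKM summed over all genes, which was higher in stch4-1.

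**Figure D3:**
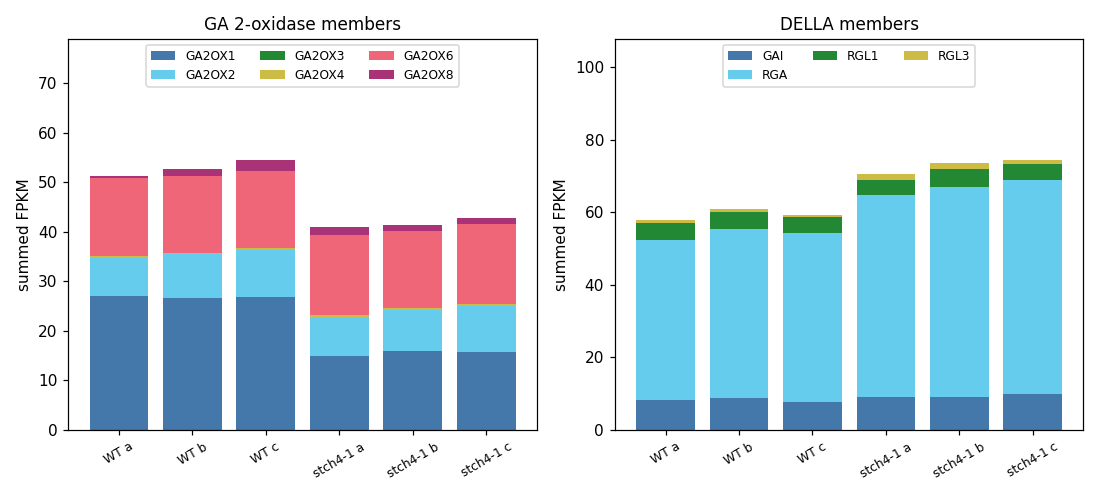
Summed FPKM of the 6 GA 2-oxidase genes (left) and the 4 DELLA genes (right) in each library, stacked by gene on linear axes from 0. The GA 2-oxidase stack shrinks from between 51.3 and 54.5 FPKM in WT to between 40.9 and 42.8 FPKM in stch4-1 through its GA2OX1 segment, and the DELLA stack grows from between 57.8 and 60.8 FPKM to between 70.7 and 74.4 FPKM through its RGA segment.

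Ratios taken within a library do not depend on any single factor by which the library was scaled. GA2OX1 stood at 1.70, 1.71 and 1.75 times GA2OX6 in WT and at 0.928, 1.02 and 0.966 times in stch4-1. The ratio of RGA to GA2OX1 was 1.71 ± 0.0652 in WT and 3.73 ± 0.0601 in stch4-1 (SD, n = 3). GA2OX1 to GA2OX2 was 3.10 ± 0.362 in WT and 1.83 ± 0.146 in stch4-1, and RGA to RGL1 was 10.2 ± 0.513 and 12.4 ± 1.12. These 4 ratios did not overlap between the genotypes, and each gave p = 0.1 in an exact 2-sided permutation test, the smallest possible. RGA to GAI, at 5.61 ± 0.344 in WT and 6.24 ± 0.199 in stch4-1, touched at 6.01 in both groups (exact permutation p = 0.2). In all, 5 ratios were computed, and none can pass a threshold of 0.05 in this design. Each of the 5 holds GA2OX1 or RGA, the genes that limma called, so their separation is no further support for those calls. How often ratios of other gene pairs separate the genotypes was not computed.

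The rest of the GA pathway was read from 6 lists with 46 genes, of which 33 were tested. Limma called 7 higher and 6 lower, against 18.5% and 14.0% of all genes tested, and the median log2 fold change was 0.04, beside 0.01 over all genes. Of 14 GA synthesis genes, 7 were tested, 1 was higher and 1 was lower. GA20OX1, which makes the direct precursors of bioactive GAs, rose from 3.14 ± 0.144 to 4.55 ± 0.685 FPKM (log2 fold change 0.42, limma adjusted p = 0.0175), a call lost without WT c (adjusted p = 0.0583). KAO1, which acts earlier, at the kaurenoic acid step, fell from 5.42 ± 0.275 to 4.04 ± 0.523 FPKM (log2 fold change -0.35, limma adjusted p = 0.0221). The KAO1 call was lost when stch4-1 a, stch4-1 c, WT b or WT c was left out (adjusted p between 0.0587 and 0.0726).

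Among 4 genes of other GA inactivation routes, 1 was tested and none was called. That gene, CYP714A1, a cytochrome P450 that inactivates GAs, read 1.39 ± 0.0532 FPKM in WT and 0.957 ± 0.141 in stch4-1 (log2 fold change -0.29, limma adjusted p = 0.0754). It was called lower with no filter (adjusted p = 0.0392) and with no intensity trend (adjusted p = 0.0179).

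All 7 genes for GA receptors and DELLA regulators were tested, and 2 were higher and 1 lower. GID1B, a GA receptor, rose from 15.5 ± 0.563 to 18.0 ± 1.43 FPKM (log2 fold change 0.20, limma adjusted p = 0.0484), a call lost in 10 of 13 other settings (adjusted p up to 0.146). SLY1, the F-box protein that targets DELLA proteins, rose from 16.1 ± 1.74 to 19.7 ± 1.64 FPKM (log2 fold change 0.28, limma adjusted p = 0.0425), a call lost in 9 of 13 (adjusted p up to 0.161). SEC, the O-GlcNAc transferase that modifies RGA, fell from 33.2 ± 0.472 to 29.0 ± 0.359 FPKM (log2 fold change -0.19, limma adjusted p = 0.0069). Once the trend of the values with transcript length was removed, the SEC value was -0.06 (adjusted p = 0.277).

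DELLA target genes are genes whose transcripts DELLA proteins raise in Arabidopsis. Of 10 on the list, 8 were tested, 2 were called higher and none lower, and the median log2 fold change was 0.13. Over all genes tested, 18.5% were called higher and 14.0% lower, with a median of 0.01. A count of 2 of 8 is near that share and is no result about the list. The 2 called were GID1B, given above with the settings that lost its call, and XERICO, a RING-type gene of the abscisic acid pathway. XERICO rose from 23.2 ± 2.85 to 29.6 ± 2.03 FPKM (log2 fold change 0.34, limma adjusted p = 0.0216), and without stch4-1 b its call was lost (adjusted p = 0.0688). Of the 7 DELLA-binding IDD zinc-finger factors, all were tested, none was called higher and 2 were lower. IDD5 fell from 26.0 ± 2.12 to 19.5 ± 0.947 FPKM (log2 fold change -0.40, limma adjusted p = 0.0036). IDD10 fell from 4.44 ± 0.174 to 3.41 ± 0.316 FPKM (log2 fold change -0.30, limma adjusted p = 0.0269), and that call was lost on leaving out stch4-1 a, stch4-1 c or any WT library (adjusted p between 0.0583 and 0.0803).

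GASA genes encode small cysteine-rich peptides, several of which respond to GA. Of 8, 6 were tested, 3 were higher and 2 lower, so the group did not move one way. GASA6 rose from 127 ± 7.85 to 190.1 ± 6.77 FPKM (log2 fold change 0.58, limma adjusted p = 0.00021). AT1G22690, annotated as a gibberellin-regulated family protein, rose from 214 ± 8.11 to 318 ± 7.06 FPKM (log2 fold change 0.57, limma adjusted p = 6.7e-05). GASA4, the most abundant of them, rose from 489 ± 12.4 to 578 ± 7.18 FPKM (log2 fold change 0.24, limma adjusted p = 0.0016), and it was not called under quantile normalization (0.06, adjusted p = 0.344). GASA5 fell from 54.5 ± 4.502 to 41.4 ± 0.145 FPKM (log2 fold change -0.38, limma adjusted p = 0.0021). GASA14 fell from 14.7 ± 3.22 to 9.81 ± 1.37 FPKM (log2 fold change -0.53, limma adjusted p = 0.0333), a call lost in 6 of 13 other settings (adjusted p up to 0.103).

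**Figure D4:**
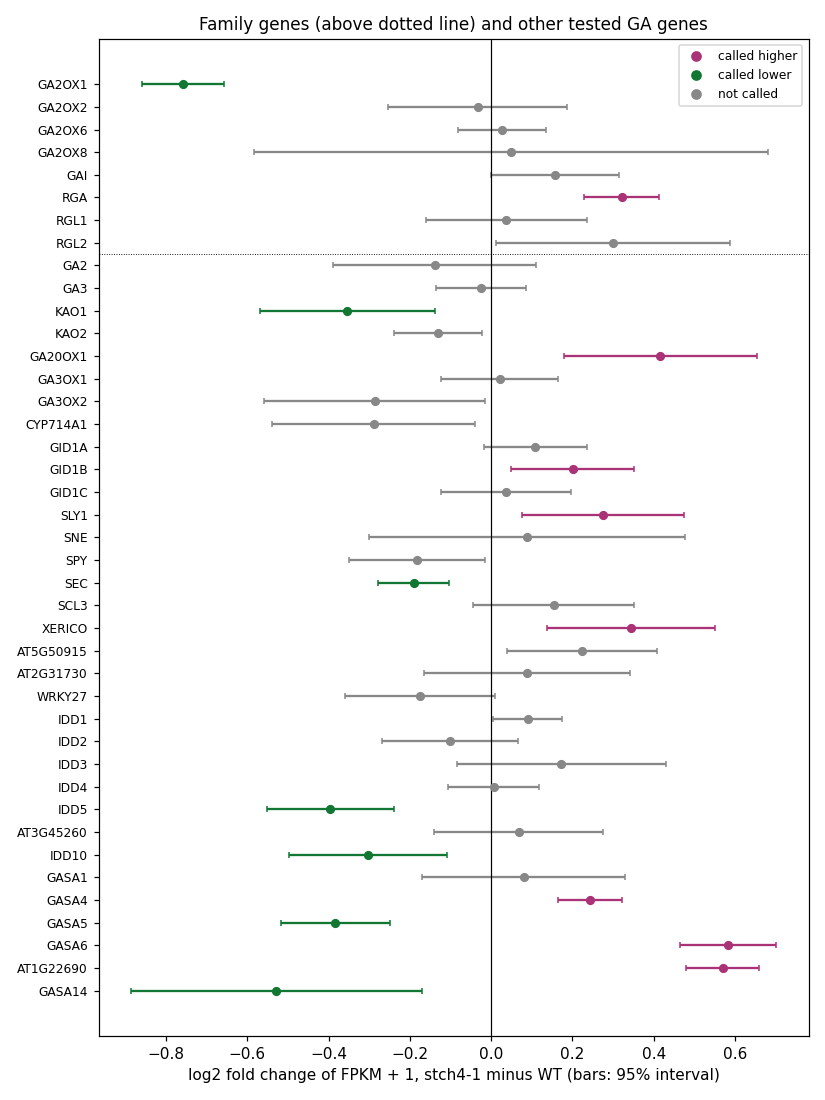
Limma log2 fold change of FPKM + 1, stch4-1 minus WT, with 95% intervals, for the tested GA 2-oxidase and DELLA genes (above the dotted line) and the 33 other tested GA genes. Colours mark genes called higher, called lower or not called. GA2OX1 lies farthest to the left at -0.76, and the farthest to the right are GASA6 at 0.58 and AT1G22690 at 0.57.

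The CBF genes, cold-response factors that act upstream of GA inactivation in Arabidopsis, were all called higher in the same libraries, as were 18.5% of all genes tested. CBF1 read 309 ± 10.8 FPKM in WT and 394 ± 16.4 in stch4-1 (log2 fold change 0.35, limma adjusted p = 0.00091), and CBF2 876 ± 47.1 and 1137 ± 45.3 (0.38, limma adjusted p = 0.0012). CBF3 read 798 ± 74.5 and 997 ± 92.1 FPKM (0.32, limma adjusted p = 0.0199), and its call was lost under quantile normalization (0.17) and without WT a, WT c or stch4-1 a (adjusted p up to 0.0854). Quantile normalization also lowered the log2 fold changes of CBF1 to 0.18 and of CBF2 to 0.21, both still called. The GA 2-oxidase transcripts beside them were lower for GA2OX1 and not called for GA2OX2 and GA2OX6.

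Among the 19288 other genes tested, those whose values ran closest to GA2OX1 over the 6 libraries were taken by the root mean square difference of centred log2(FPKM + 1). CYP707A1 (AT4G19230), which inactivates abscisic acid, came first with a difference of 0.0228 and went from 23.6 ± 0.156 to 13.8 ± 0.415 FPKM. PERK10 (AT1G26150), a receptor-like kinase, also differed by 0.0228 and went from 25.0 ± 0.568 to 14.6 ± 0.375 FPKM. DGAT3 (AT1G48300), a diacylglycerol acyltransferase, differed by 0.0258 and went from 107 ± 1.37 to 63.3 ± 1.17 FPKM. With 6 libraries in 2 groups, this likeness reflects mainly a fall of the same size.

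Organ markers bear on every bulk value above, since fewer cells of a type and less RNA per cell cannot be told apart in whole seedlings. Over all genes tested, 14.0% were called lower and 18.5% higher, with a median log2 fold change of 0.01. Of 16 root markers 13 were tested, and 9 were lower and none higher, with a median log2 fold change of -0.34. Of those not called, EXPA18, MYB36 and EXPA7 had log2 fold changes of 0.21, 0.08 and 0.03. The summed FPKM of the 16 was 1797 to 1829 in WT and 1558 to 1597 in stch4-1, most of it from BGLU23 alone. Without BGLU23 the sum was 250.4 to 259 FPKM in WT and 199 to 203 in stch4-1, and no root marker was at 0 in every library. Of 5 leaf markers, 1 was called, lower, and their sums overlapped at 24636 to 30526 in WT and 24461 to 31372 FPKM in stch4-1. Of 5 shoot meristem markers, 2 were tested. KNAT1 was lower, at 11.7 ± 1.05 FPKM in WT and 8.22 ± 0.766 in stch4-1, whereas STM, which was not called, read 2.96 ± 0.279 and 3.58 ± 0.249 FPKM (log2 fold change 0.21, limma adjusted p = 0.116). The sums of the 5, 14.5 to 17.1 FPKM in WT and 11.6 to 13.5 in stch4-1, therefore follow KNAT1. CLV3 was at 0 in all 6 libraries and WUS in 5. The part of organ make-up in the fall of GA2OX1 and in the rise of RGA was not tested.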

How the data were processed

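RNA-seq of 18 samples is described in the labels; the table used here holds 6 libraries, of WT and stch4-1 at 4 h. Per the labels' protocols, RNA was extracted with Trizol, DNase-treated and sequenced on an Illumina instrument. The deposited values are FPKM per gene, made by the authors with TopHat2 and Cufflinks on TAIR10 (per the submitters' processing notes). The sources used here give no versions or filters, nor the strand setting or how reads shared between genes were counted. Column names give genotype and time but number libraries from 0 where titles count from 1, so a library could be tied to its genotype but not to one title.

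From these values, genes with at least 1 FPKM in 3 or more of 6 libraries were taken as log2(FPKM + 1), a scale that understates changes of low genes. A model with 1 mean per genotype was fitted with limma 3.58.1 (R 4.3.3), moderated by eBayes along the intensity trend from 4 residual degrees of freedom. Tests were 2-sided, and p-values of the 19289 genes were adjusted together by Benjamini-Hochberg. Genes below the filter were compared by exact permutation over libraries (scipy 1.17.1), where the smallest possible p is 0.1. Fragments were estimated from the FPKM worth of 1 fragment in genes with 1 transcript and exon length above 1200, so they are approximate. Symbols, gene models and sequences came from RefSeq on TAIR10.1, which held 32810 of the identifiers, and joins used Python 3.11.15 with pandas 2.3.3. Promoter sequences are not reported here.

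The genes described, the lists and the tests were chosen with earlier results of these data known, so list counts are descriptions beside those of all genes. Named were the 10 genes, GA2OX7, RGL2, REIL2, the CBF genes, up to 3 called genes per direction in each GA list (in a list with no call, the most abundant), and the 3 genes most like GA2OX1. Alternatives were no filter, a filter at 0.1 FPKM, 0.1 as pseudocount, no intensity trend, quantile normalization, median-of-ratios scaling, removal of a lowess trend with exon length, and each library left out in turn.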

Additional observations from a re-analysis of the deposited data

How the results depend on the processing

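The number of the 10 genes called was 2 under every alternative except the filter at 0.1 FPKM, where it was 3, with RGL3 added. GA2OX1 and RGA were called under all 13 alternatives, at log2 fold changes of -0.84 to -0.74 (adjusted p from 2.3e-05 to 0.00054) and 0.25 to 0.36 (adjusted p from 0.00054 to 0.0050). RGA was lowest, at 0.25, under quantile normalization. Leaving out each library in turn gave 2605 to 3277 genes called higher and 1819 to 2281 lower.

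Direction turned for some genes that were not called. With the length trend removed, the log2 fold change was 0.0068 for GA2OX2, -0.023 for GA2OX6 and -0.0026 for GA2OX8. Leaving out each library in turn gave -0.11 to 0.028 for GA2OX2, -0.28 to 0.32 for GA2OX8 and -0.025 to 0.10 for RGL1. The cause was not tested. Over 26 genes and 13 alternatives, 286 of 338 values kept their direction and side of the threshold, 42 lost the call, 2 gained it and 8 changed direction.

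No paired analysis was possible because the column numbers match no numbers in the sample titles, and nothing in the labels ties a column of one genotype to one of the other. With 3 libraries a genotype and few fragments on GA2OX3, GA2OX4, GA2OX7 and GA2OX8, the data have little power for small differences in these genes.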
